A study of Mus musculus with 5 samples.

Results

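The large Polycomb domains described here are stretches of autosomal chromatin with H3K27me3 peaks in all 4 libraries used. H3K27me3 stands for trimethylation of lysine 27 on histone H3. Broad peaks of 4 libraries on 19 autosomes were merged where they shared at least 1 bp. A merged region was kept when it held a peak of all 4 libraries and was at least 20 kb long. It was left out when the smaller Kdm6b-cKO covered length was at least 2 times the larger WT covered length, or when the smaller WT covered length was above the larger Kdm6b-cKO covered length. These steps left 996 domains of 47569 merged regions (2.09%), or 10.2% of the 9810 regions with a peak in all 4 libraries. Of the other shared regions, 8685 were shorter than 20 kb, 104 were at least doubled in Kdm6b-cKO and 25 were longer in both WT libraries. The covered lengths of all 4 libraries thus chose the members, so the members were selected on the very lengths compared, and Kdm6b-cKO and WT values inside them are given as a description with no test. "Stable" means only that neither limit was crossed.

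The study asked how removal of H3K27me3 shapes the lineages of mouse dermal fibroblasts, and compared Kdm6b-cKO with WT cells. Kdm6b-cKO cells carried floxed Kdm6b alleles (Kdm6b fl/fl) and the dermal fibroblast driver Dermo1-Cre, also called Twist2-Cre, and the other libraries are described only as WT. All mice were on a C57BL/6 background, the study describes the skin as late embryonic, and the ROSA26 mT/mG reporter used in its mouse lines turns cells green after Cre has acted. There were 2 Kdm6b-cKO libraries (replicates 3 and 4) and 2 WT libraries (replicates 7 and 9). The labels give the same GFP sort for every sample, WT included, and all cells were expanded in AmnioMAX culture before fixation. They do not say whether replicates were separate embryos, so the spread between replicates may be technical. The peak lists hold no read counts, the depth behind each peak is unknown, and the deletion of Kdm6b cannot be checked in them. An input library was not used here.

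H3K27me3 is written by Polycomb repressive complex 2 (PRC2) through its catalytic subunits Ezh1 and Ezh2, and it can spread along chromatin because the complex also binds the mark. It is read by CBX proteins of Polycomb repressive complex 1 and is erased by the demethylases Kdm6a and Kdm6b, the second also known as Jmjd3. In differentiated cells the mark lies over CpG islands of silent developmental regulators, and clusters of such genes can form domains far longer than a single CpG island. A fibroblast keeps the regulators of neurons, muscle and blood under it while its own matrix genes stay free.

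Promoters of both CpG-rich and CpG-poor kinds were found in the domains, and these 5 are shown because their genes lie in the domains with the largest shared cores. They are RefSeq sequences of GRCm38.p6, the assembly behind mm10, running from 250 bases before to 50 bases after the annotated start, 5′ to 3′, with every CG dinucleotide in capitals. Gbx2 and Uncx encode homeodomain factors, Ihh a Hedgehog ligand, Olfr1415 an olfactory receptor and H2-T3 a class I histocompatibility protein.
Gbx2 promoter, chr1:89931127-89931426, minus strand: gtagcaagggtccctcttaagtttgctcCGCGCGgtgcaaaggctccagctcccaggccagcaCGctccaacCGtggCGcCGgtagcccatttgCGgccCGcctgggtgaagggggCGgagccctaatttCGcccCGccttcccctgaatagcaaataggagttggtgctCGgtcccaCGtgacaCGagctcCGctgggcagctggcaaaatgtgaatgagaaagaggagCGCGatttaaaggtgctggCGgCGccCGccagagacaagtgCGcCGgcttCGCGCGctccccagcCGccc
Uncx promoter, chr5:139543648-139543947, plus strand: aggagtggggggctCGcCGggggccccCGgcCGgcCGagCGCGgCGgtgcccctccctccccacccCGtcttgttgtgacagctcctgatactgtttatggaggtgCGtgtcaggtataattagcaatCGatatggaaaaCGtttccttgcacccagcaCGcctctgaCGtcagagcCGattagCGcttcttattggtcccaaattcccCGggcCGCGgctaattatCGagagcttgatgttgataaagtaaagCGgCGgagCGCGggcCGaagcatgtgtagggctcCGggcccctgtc
Ihh promoter, chr1:74951623-74951922, minus strand: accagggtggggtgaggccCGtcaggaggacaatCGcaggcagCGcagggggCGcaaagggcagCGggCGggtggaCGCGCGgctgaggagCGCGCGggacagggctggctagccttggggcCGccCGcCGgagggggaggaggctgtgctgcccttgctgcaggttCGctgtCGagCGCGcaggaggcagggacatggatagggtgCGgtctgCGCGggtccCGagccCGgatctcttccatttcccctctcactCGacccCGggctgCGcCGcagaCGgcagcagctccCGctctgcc
Olfr1415 promoter, chr1:92491704-92492003, minus strand: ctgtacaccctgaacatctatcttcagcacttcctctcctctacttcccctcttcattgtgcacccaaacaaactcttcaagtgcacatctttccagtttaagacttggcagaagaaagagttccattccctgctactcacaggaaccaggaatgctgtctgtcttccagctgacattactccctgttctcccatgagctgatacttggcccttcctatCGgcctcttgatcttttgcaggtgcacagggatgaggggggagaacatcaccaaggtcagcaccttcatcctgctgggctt
H2-T3 promoter, chr17:36190102-36190401, minus strand: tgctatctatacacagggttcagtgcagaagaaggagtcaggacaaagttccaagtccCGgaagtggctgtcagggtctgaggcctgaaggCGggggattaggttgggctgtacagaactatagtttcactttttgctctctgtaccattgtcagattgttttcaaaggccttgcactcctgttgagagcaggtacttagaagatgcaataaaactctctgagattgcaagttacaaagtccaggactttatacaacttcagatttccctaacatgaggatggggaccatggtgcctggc

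The promoters of Gbx2, Uncx and Ihh held 27, 26 and 30 CG dinucleotides, while those of H2-T3 and Olfr1415 held 2 and 1. All but the Olfr1415 promoter were fully covered by a peak in all 4 libraries, and that of Olfr1415 in 2. Over the 772 promoter entries of 608 coding genes that start in a domain, the median was 15 CG, beside 14 CG over 19174 autosomal promoter entries. The developmental transcription factors among them had a median of 20 CG (142 entries of 119 genes), and 72.5% of these entries held 15 or more, beside 49.4% of all autosomal entries. The other genes in domains had a median of 12 CG (630 entries), below that of all promoters. CGCG, a run of 2 adjacent CG dinucleotides that reads the same on both strands, was present in 76.8% of the transcription factor entries in domains, 49.2% of the other entries in domains and 51.4% of all entries. GCCATNTT, a form of the motif of Yy1, a zinc finger protein related to the fly Polycomb recruiter Pho, was searched on both strands and occurred in 2.202% of entries in domains and 6.41% of all entries.

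Mature microRNAs that come from these domains are shown next because the seeds of miR-9 and miR-196 recur at separate domains and miR-203 is a microRNA of skin. The sequences are RefSeq's, with bases 2 to 8 in capitals as the seed.
mmu-miR-9-5p from Mir9-1, chr3:88215613-88215635, plus strand: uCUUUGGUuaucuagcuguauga
mmu-miR-9-5p from Mir9-2, chr13:83738821-83738843, plus strand: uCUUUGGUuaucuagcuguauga
mmu-miR-9-5p from Mir9-3, chr7:79505279-79505301, plus strand: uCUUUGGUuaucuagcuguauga
mmu-miR-196b-5p from Mir196b, chr6:52230129-52230150, minus strand: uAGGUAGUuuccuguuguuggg
mmu-miR-196a-5p from Mir196a-2, chr15:102973365-102973386, plus strand: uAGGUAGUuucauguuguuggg
mmu-miR-203-3p from Mir203, chr12:112130927-112130948, plus strand: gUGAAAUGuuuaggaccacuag

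All 3 copies of Mir9, a neuronal microRNA, lay in a domain and were covered in all 4 libraries. Mir9-1 shared its domain with Rhbg, Mir9-3 with Rhcg, and Mir9-2 lay in a domain with no coding start. Mir196b and Mir196a-2, which carry the same seed AGGUAGU and sit inside Hox clusters, fell in the domains of Hoxa9 to Hoxa13 and of Hoxc9 to Hoxc13. Mir196b was covered in 4 libraries and Mir196a-2 in 3. Mir203, which is made in the epidermis, was covered in 4 libraries in the domain of Aspg. In all, 36 of 919 autosomal hairpins (3.92%) lay in a domain, next to 3.94% of coding gene starts.

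The domains covered 35.3 Mb, or 1.43% of the autosomes. Their median length was 29.1 kb (quartiles 23.6 and 39.9 kb), and they ran from 20.01 to 206.7 kb. There were 523 domains (52.5%) of 20 to 30 kb, 140 of at least 50 kb and 15 of at least 100 kb. At the length limit, the shortest members were 20011 and 20024 bp long, and the longest regions left out were 19999 and 19997 bp. At the doubling limit, the smaller Kdm6b-cKO length was 1.991 and 1.969 times the larger WT length for the last members, at Afap1l1 and near Fzd9, and 2.005 and 2.018 times for the first regions left out, within Slit1 and near Sulf2. At the WT limit, the smaller WT length was 0.999 and 0.998 of the larger Kdm6b-cKO length for Tfap2a and Nkx6-1, both kept, and 1.003 and 1.005 for an intergenic region of chromosome 1 and for Pax3, both left out.

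Within these limits the domains were longer in Kdm6b-cKO than in WT. Kdm6b-cKO peaks covered 33.7 and 32.0 Mb of them in replicates 3 and 4, and WT peaks covered 28.6 and 22.8 Mb in replicates 7 and 9. The means were 32.9 ± 1.20 Mb in Kdm6b-cKO, against 25.7 ± 4.05 Mb in WT (SD, n = 2 each), a ratio of 1.28. The 2 Kdm6b-cKO values were close to each other, the WT values were further apart, and the groups did not overlap. Outside the domains the same libraries covered 91.5 ± 11.6 Mb in Kdm6b-cKO, against 42.8 ± 14.7 Mb in WT, a ratio of 2.13. When every list was cut to the covered length of the shortest, WT replicate 9, by dropping its peaks of lowest −log10 q, the same domains held 28.6 and 27.04 Mb in Kdm6b-cKO, against 25.4 and 22.8 Mb in WT, a ratio of 1.15. That cut left 4371 and 5759 peaks in Kdm6b-cKO and 8027 and 19210 peaks in WT, where replicate 9 was not cut. By −log10 q the median domain lay at percentile 95.6 and 94.3 of the Kdm6b-cKO lists and 93.0 and 89.7 of the WT lists. The cut thus fell mostly on peaks outside the domains, and it does not make the libraries equal inside them.

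The share of a domain that was covered ordered the libraries in the same way. The length of a domain is that of the merged peaks of all 4 libraries. The longer lists thus set much of it, and the share is no separate result. The median was 96.0% and 91.6% of a domain in Kdm6b-cKO replicates 3 and 4, and 83.0% and 64.3% in WT replicates 7 and 9. WT replicate 9 was the library with the least covered length in 889 domains (89.3%) and Kdm6b-cKO replicate 3 the one with the most in 649 (65.2%). That library order, Kdm6b-cKO replicate 3, Kdm6b-cKO replicate 4, WT replicate 7 and WT replicate 9 from most to least, held in 464 domains (46.6%) and is also the order of the whole lists, which covered 133.3 and 115.3 Mb of the autosomes in Kdm6b-cKO and 81.8 and 55.3 Mb in WT. Both Kdm6b-cKO libraries covered more than both WT libraries in 687 domains (69.0%), next to 57.3% of all regions with a peak in 4 libraries. The reverse held in 0 domains, which the rule fixes, next to 3.65% of those regions, and the groups overlapped in 309 domains. The part of list size in these counts was not tested.

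Per domain, the ratio of mean Kdm6b-cKO to mean WT covered length had a median of 1.25 (quartiles 1.09 and 1.57) and ran from 0.805 to 3.08. It was between 0.9 and 1.1 in 270 domains (27.1%), above 2 in 92 and below 1 in 87 (8.73%). The highest ratio was inside Cacna1a, a neuronal calcium channel gene, where Kdm6b-cKO peaks covered 22.0 and 22.0 kb and WT peaks 11.3 and 2.95 kb. The lowest was at Neurod1, a neuronal and endocrine basic helix-loop-helix factor, with 15.7 and 15.2 kb in Kdm6b-cKO, against WT values of 23.3 and 15.04 kb. Both WT libraries were below both Kdm6b-cKO libraries at Cacna1a, WT replicate 9 furthest, and WT replicate 7 alone was above the rest at Neurod1. Shorter domains had the higher ratios, with medians of 1.32 for 20 to 30 kb, 1.22 for 30 to 50 kb and 1.21 for 50 kb or more.

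**Figure D1:**
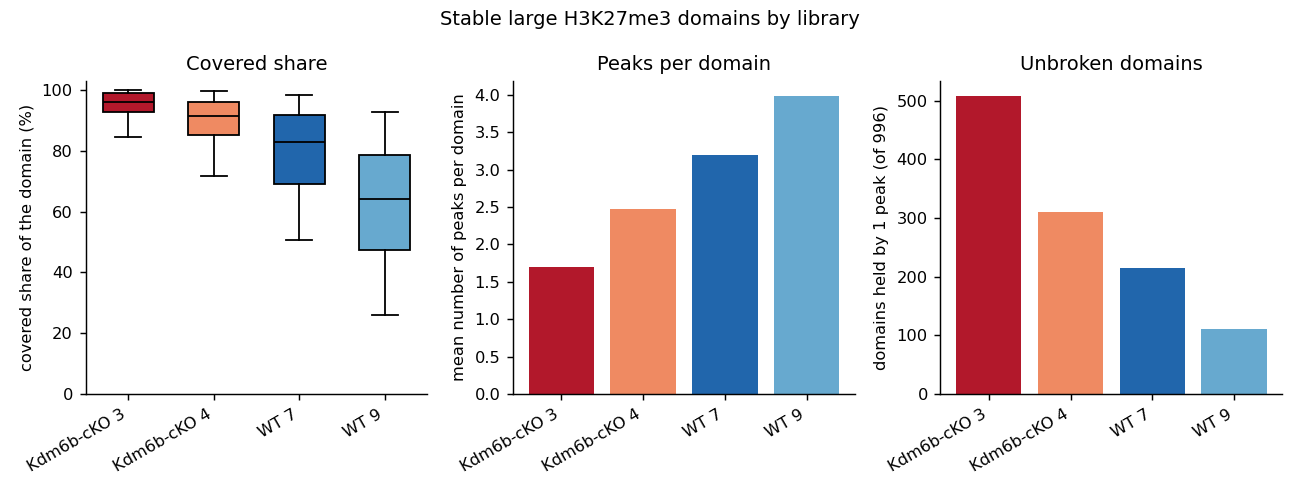
Covered share, peak number and continuity of the 996 domains in each library. Boxes give the median and quartiles of the covered percent of a domain with whiskers at the 5th and 95th percentiles, and bars give the mean number of peaks per domain and the number of domains held by 1 peak. The median share is 96.0% and 91.6% in Kdm6b-cKO, against 83.0% and 64.3% in WT, and the mean number of peaks per domain is lower in Kdm6b-cKO.

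At the deposited peak threshold, most of the added length lay between WT peaks and not at the domain edges. Bases covered in both Kdm6b-cKO libraries and neither WT library came to 3.86 Mb, in 911 domains, and bases that only the pair of WT libraries covered came to 0.116 Mb. Of the 3.86 Mb, 2.65 Mb (68.7%) lay inside the outer span of the WT peaks. The share was 37.6% in the shorter shared regions and 63.0% in the doubled ones. The share moved with the peak threshold, and with only peaks of −log10 q of at least 4 it was 27.9% in the domains.

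The same pattern appears in the number of pieces. A domain held on average 1.70 and 2.47 peaks in Kdm6b-cKO and 3.19 and 3.99 peaks in WT. A single peak made up the whole of the library's signal in 508 and 310 domains in Kdm6b-cKO and in 215 and 111 domains in WT, a mean of 409 ± 140 for Kdm6b-cKO against 163 ± 73.5 for WT (SD, n = 2 each). There were 2187 stretches between WT peaks that neither WT library filled, with a median of 1.24 kb, and 1382 of these (63.2%) were covered from end to end in both Kdm6b-cKO libraries. Kdm6b-cKO libraries left 291 such stretches, with a median of 1.01 kb, and both WT libraries covered 53 of them (18.2%). Peaks were merged only where they overlapped, so every base of a domain lies under a peak of some library. A stretch open in both WT libraries is therefore always under Kdm6b-cKO peaks, and the reverse holds too. The counts show only how often both libraries of the other pair covered the whole stretch. That was more often the case for Kdm6b-cKO, whose lists are longer.

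The fold of the called peaks differed less than the covered length. Stretches without a peak do not enter the fold, so it is not the height of the mark over a whole domain. The median fold over local background, as the peak caller gave it, was 3.98 and 3.79 in Kdm6b-cKO domains and 3.56 and 3.56 in WT domains, against 2.85 and 2.85 over all Kdm6b-cKO peaks and 2.94 and 3.07 over all WT peaks. The ratio of Kdm6b-cKO to WT fold had a median of 1.07 across domains (quartiles 1.01 and 1.12). In every library the median of the domains was thus above the median over all peaks. These are unlike measures, since the fold of a domain is a mean weighted by peak length. The peaks of the domains took up 25.3% and 27.8% of the covered length of the Kdm6b-cKO lists and 34.9% and 41.3% of that of the WT lists.

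**Figure D2:**
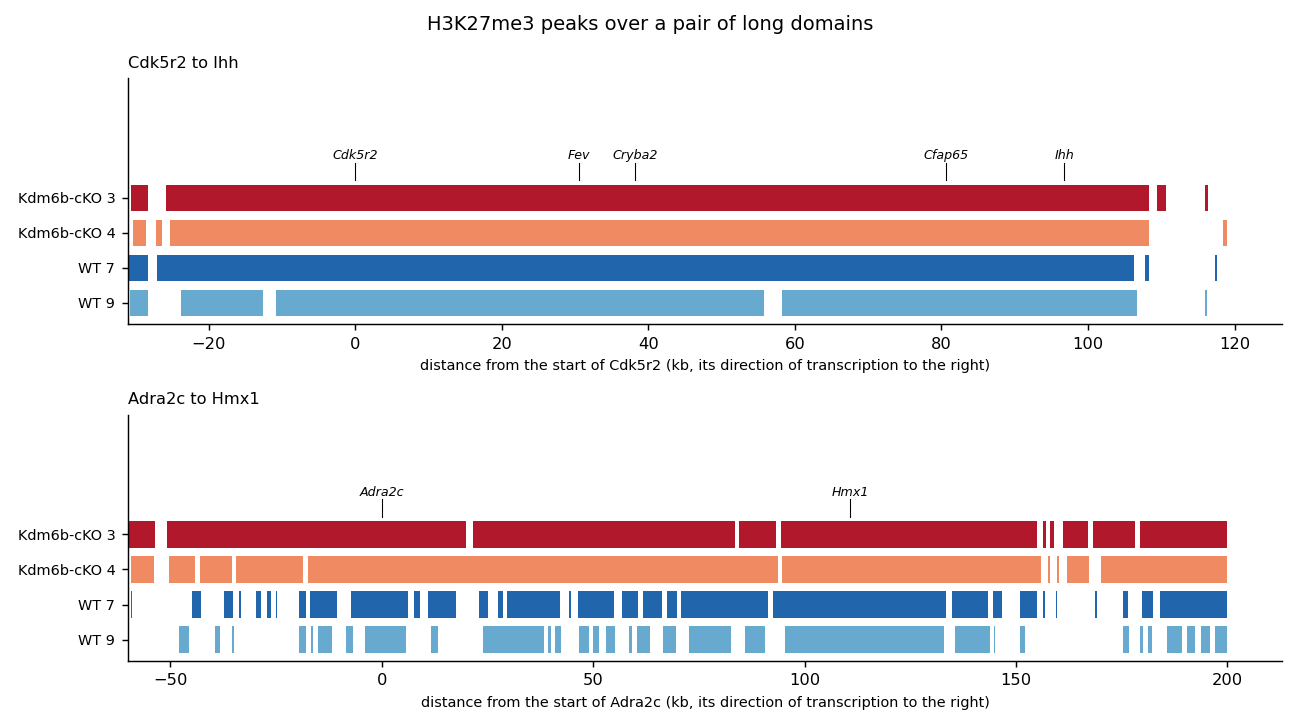
H3K27me3 peaks of each library over 2 of the longest domains, as bars against the distance in kb from the start of Cdk5r2 (upper panel) or Adra2c (lower panel). The domain from Cdk5r2 to Ihh is filled by 1 to 3 peaks in each library, while the one from Adra2c to Hmx1 is held by 4 and 5 peaks in Kdm6b-cKO and by 24 peaks in each WT library.

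The longest domain, chr5:35227439-35434150 in mm10, contains the starts of Adra2c, an adrenergic receptor gene, and Hmx1, a homeobox gene of the eye, ear and sensory ganglia. Kdm6b-cKO peaks covered 202.1 and 201.8 kb of it and WT peaks 148.2 and 113.6 kb. It was built of 4 and 5 peaks in Kdm6b-cKO and of 24 and 24 peaks in WT, and 40.8 kb covered in both Kdm6b-cKO libraries and neither WT library lay within the WT span. Most of what the Kdm6b-cKO libraries added thus lay in gaps between WT peaks. The domain of Cdk5r2, Fev, Cryba2, Cfap65 and Ihh at chr1:74827693-74963318 was of the other kind. It had 134.2 and 134.5 kb in Kdm6b-cKO, against WT values of 133.9 and 126.3 kb, in 1 to 3 peaks per library. Fev is a regulator of serotonergic neurons, and Mir375, a pancreatic islet microRNA, lies in the same domain.

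The core of a domain, covered in all 4 libraries, came to 20.9 Mb in all and to a median of 58.3% of the domain (quartiles 40.4% and 73.5%). It exceeded 90% of the length in 46 domains and was under 10% in 5. The largest core, 134.5 kb, was at chr7:79474777-79620156 over Rhcg, an ammonium transporter gene, and Mir9-3. This domain had 144.2 and 144.9 kb in Kdm6b-cKO, against WT values of 142.2 and 135.5 kb. Gbx2, a hindbrain and limb homeobox gene, had 95.5 and 88.2 kb in Kdm6b-cKO, against WT values of 93.8 and 89.0 kb, and the groups overlapped. Uncx, a homeobox gene of the somites and kidney, had 93.3 and 92.6 kb in Kdm6b-cKO, against WT values of 85.6 and 81.1 kb, without overlap. The domain of the complement genes C1qa, C1qb and C1qc and the ephrin receptor gene Epha8 had 127.0 and 123.9 kb in Kdm6b-cKO, against WT values of 113.5 and 93.7 kb. WT replicate 9 was the lowest library at Rhcg, Uncx and the C1q genes, and a Kdm6b-cKO library was the lowest at Gbx2.

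Not all of the large cores were at developmental regulators. A domain of 7 olfactory receptor starts, Olfr1410 to Olfr1416, had 130.4 and 119.2 kb in Kdm6b-cKO, against WT values of 128.2 and 106.7 kb. The domain of H2-T3 on chromosome 17, in the major histocompatibility complex, had 106.8 and 106.0 kb in Kdm6b-cKO, against WT values of 108.5 and 105.7 kb. The genotypes overlapped at both. Olfactory receptor and H2 genes belong to multigene families, so reads may be shared among near-identical copies and the placing of these peaks is uncertain. The same holds for the domain at chr8:123536896-123627680, an array of 51 annotated 5S ribosomal RNA genes of which repeats make up 78.9%. It had 90.2 and 88.3 kb in Kdm6b-cKO, against WT values of 89.7 and 87.3 kb, with folds of 9.13 and 8.03 in Kdm6b-cKO and 5.32 and 5.07 in WT. Its fold ratio of 1.65 was the highest of all domains, and the next was 1.39.

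**Figure D3:**
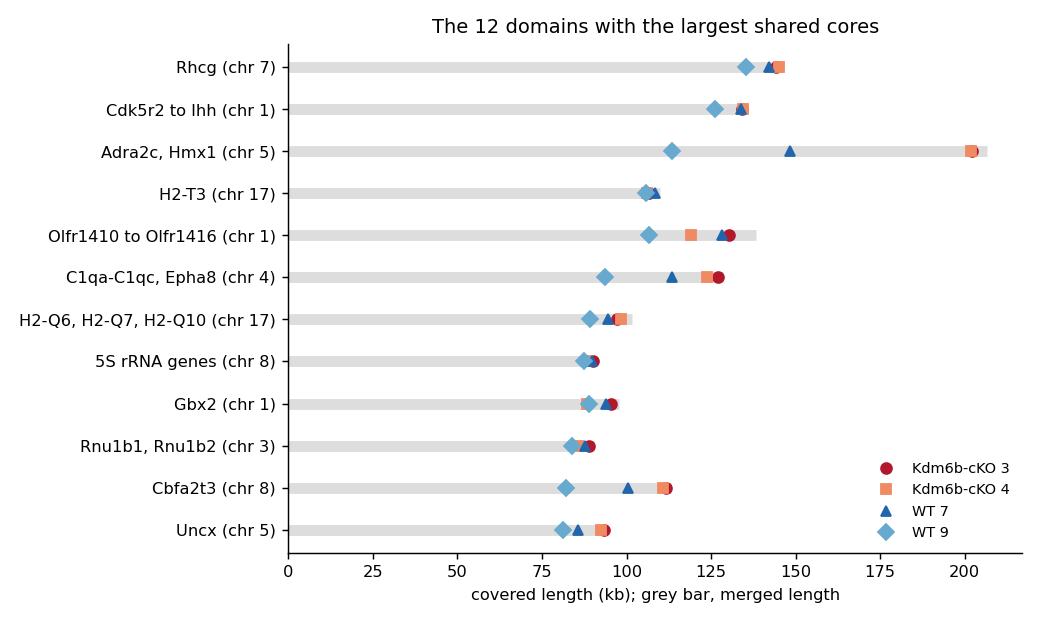
Covered length in kb in each library for the 12 domains with the largest shared cores, largest core at the top, with the merged length as a grey bar. The 4 libraries nearly coincide at H2-T3 and the 5S rRNA genes, and the Kdm6b-cKO points lie clear of the WT points at Adra2c and Hmx1, where they are 202.1 and 201.8 kb in Kdm6b-cKO, against WT values of 148.2 and 113.6 kb.

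Most domains held a coding start. There was 1 in 482 domains (48.4%), 2 in 109 (10.9%) and 3 or more in 32 (3.21%), while 373 (37.4%) had none. The 819 genes made up 3.94% of the 20807 autosomal coding starts, and 659 of these starts (80.5%) were covered in all 4 libraries. Gene-level starts are the furthest upstream of any annotated transcript. Of the 373 domains without a coding start, 152 overlapped the body of a coding gene and 221 lay outside coding genes, and 77 held the start of a lincRNA or antisense RNA. Besides the 5S array, the largest cores of this kind were at chr3:96320607-96411016, with Rnu1b1 and Rnu1b2 for the U1 spliceosomal RNA, and chr19:44624040-44706729, 49.3 kb from Pax2.

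Developmental transcription factors were common among the genes in domains. Of 288 listed factors, 164 (56.9%) started in a domain, next to 3.94% of all coding genes, and 155 of the 164 starts (94.5%) were covered in all 4 libraries. The rest comprised 54 in shorter shared regions, 10 in regions longer in WT, 0 in doubled regions, 1 in a region of the Kdm6b-cKO libraries alone, 2 in other regions and 57 with no peak at the start. Families whose listed members all lay in a domain included Gbx, Hmx, Isl, Lmx, Msx, Neurog, Olig, Onecut and Pitx. In other families only some members did, with 19 of 41 Fox genes, 6 of 9 Pax genes, 6 of 8 Lhx genes and 1 of 6 Irx genes. The list was drawn up with earlier results of these data known, and its share is a description.

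The 141 domains with such a factor had the median ratio nearest to 1. It was 1.08, beside 1.28 for the 482 with other coding starts only and 1.34 for the 373 without a coding start. They also had the largest core share, with a median of 77.2%, beside 58.7% and 49.0%. The factor domains were longer too, with a median of 38.4 kb, beside 29.3 and 26.7 kb. Their median fold was higher in every library, and in WT replicate 9 it was 4.57, beside 3.63 and 3.33. The part of length and fold in the class ratios was not tested. WT replicate 9 covered a median of 83.3% of a domain with a factor, 62.4% of one with other coding starts and 55.9% of one without, while in Kdm6b-cKO replicate 3 the medians were 97.0%, 96.3% and 95.3%. Kdm6b-cKO replicate 3 had the most covered length in 649 of the 996 domains, so its share is near the ceiling in every class. The Kdm6b-cKO values both lay above the WT values in 74 (52.5%), 366 (75.9%) and 247 (66.2%) domains of the 3 classes. The share was 57.3% over all regions with a peak in 4 libraries, so that of the factor class was below it. With lists cut to equal covered length, the median ratios of the same domains were 1.04, 1.22 and 1.08, so that the domains without a coding start no longer had the highest ratio. Without WT replicate 9 the 3 medians were 1.03, 1.14 and 1.15, and without WT replicate 7 they were 1.13, 1.49 and 1.60.

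**Figure D4:**
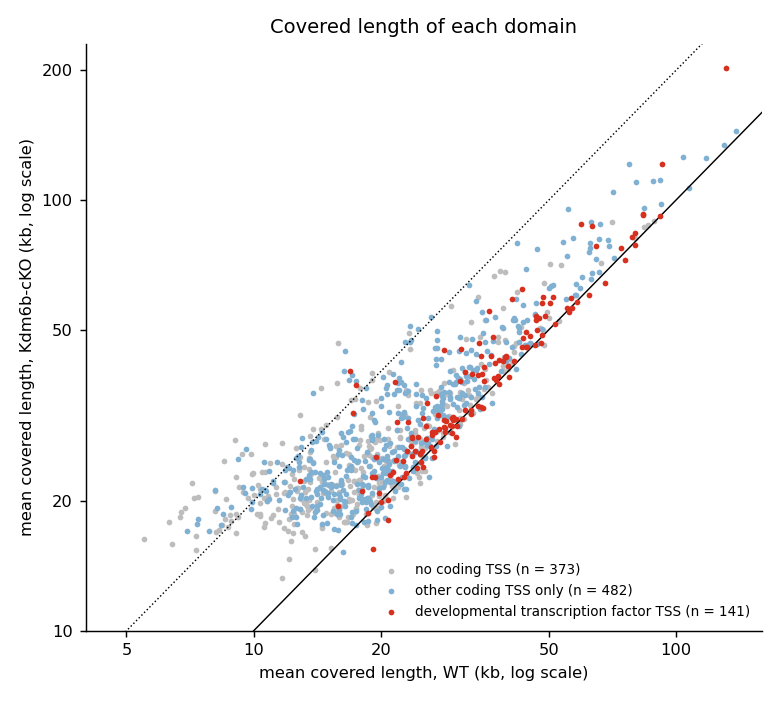
Mean covered length of each domain in Kdm6b-cKO (y axis) against WT (x axis), both in kb on log scales, with the line of equality solid and the line of doubling dotted. Points are the 996 domains, coloured by the coding starts they hold. Of the domains with a developmental transcription factor, which have a median ratio of 1.08, 84 of 141 (59.6%) have a ratio between 0.9 and 1.1, and those without a coding start have a median ratio of 1.34.

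CpG density followed the order of the same classes, and GC content did not. The domains had a median of 14.1 CpG per kb and 48.6% GC, beside 10.9 CpG per kb and 46.1% GC in the shorter shared regions, 13.1 and 50.3% in the doubled regions, 15.4 and 43.2% in the 25 regions longer in WT, 11.3 and 49.0% in regions of both Kdm6b-cKO libraries and neither WT library, and 8.51 and 41.9% over the autosomes. The domains were thus not the set with the highest CpG density, which was the regions longer in WT. With a developmental transcription factor the median was 19.1 CpG per kb, with other coding starts only 15.01 and without a coding start 11.8. Median GC in these 3 classes was 48.2%, 49.4% and 47.6%. The densest 1 kb of a domain held a median of 99, 79 and 29 CpG in the 3 classes. Across the 996 domains, Spearman's rho was 0.40 between that densest count and the core share and −0.16 between it and the Kdm6b-cKO to WT ratio. These are correlations across domains of the same 4 libraries, not across samples.

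Hox genes, which set position along the body axis, fell in the domains at 24 of 41 listed genes (58.5%), Evx1 and Evx2 included. The share was 3.94% over all coding genes. At the posterior ends of the clusters the genotypes were close. Hoxa9 to Hoxa13 had 58.6 and 53.7 kb in Kdm6b-cKO, against WT values of 56.1 and 57.02 kb. Hoxb13 had 79.8 and 77.6 kb in Kdm6b-cKO, against WT values of 80.2 and 79.3 kb. In both of these domains the values of the genotypes overlapped. Hoxc9 to Hoxc13, with the long non-coding RNA Hotair and the annotated start of Hoxc5, which was covered in 3 libraries, had 81.7 and 82.3 kb in Kdm6b-cKO, against WT values of 76.4 and 80.9 kb. Evx2 and Hoxd9 to Hoxd13 had 56.9 and 59.0 kb in Kdm6b-cKO, against WT values of 59.5 and 56.8 kb. The genotypes overlapped at Hoxd and did not at Hoxc, where the start of Hoxc10 itself was covered in WT replicate 9 alone.

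The remaining parts of the clusters, Hoxb9 included, were different. Hoxa2 to Hoxa6 formed a domain of 3 and 5 peaks with 55.5 and 52.3 kb in Kdm6b-cKO, against 10 and 6 peaks with 45.7 and 47.6 kb in WT. Hoxb1 had 20.4 and 15.8 kb in Kdm6b-cKO, against WT values of 22.7 and 18.95 kb, a ratio of 0.867, and the genotypes overlapped there. Hoxb5 to Hoxb9 were no members, since their region was longer in both WT libraries, with 32.2 and 32.7 kb in Kdm6b-cKO, against WT values of 46.5 and 38.6 kb. Hoxc4, Hoxc6, Hoxc8, Hoxd3, Hoxd4, Hoxd8, Hoxb2, Hoxb4 and Hoxa7 had no peak at the annotated start.

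**Figure D5:**
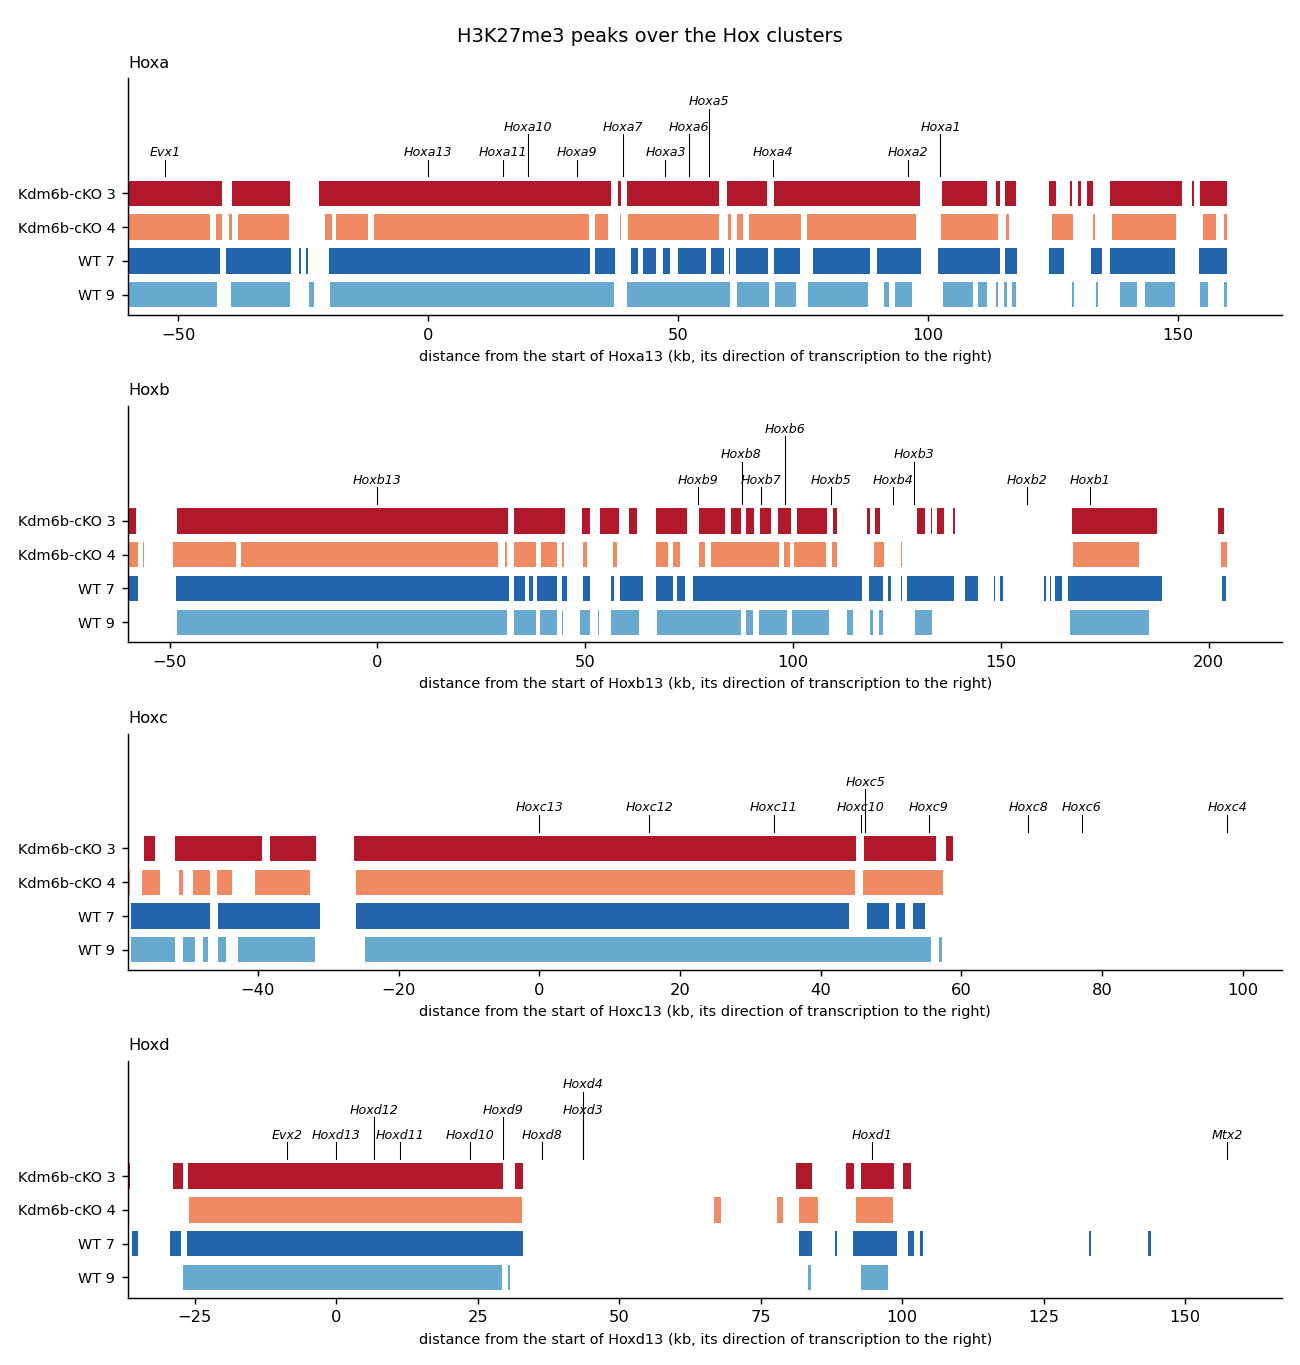
H3K27me3 peaks of each library over the Hox clusters, as bars against the distance in kb from the start of the group 13 gene of each cluster, with gene starts marked above. Long peaks span the Hox13 side in all 4 libraries. Hoxc4, Hoxc6, Hoxc8 and Hoxd8 carry no peak at their starts, and shorter peaks lie at Hoxd1 in all 4 libraries.

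Neuronal regulators were the list with the highest share of members, 38 of 50 (76.0%), next to 3.94% of all coding genes. Neurod2, a factor of cortical neurons, had 45.9 and 46.1 kb in Kdm6b-cKO, against WT values of 46.7 and 45.9 kb. The genotypes overlapped there and at Lhx2. Lhx2, a forebrain and hair follicle LIM factor, had 56.5 and 55.8 kb in Kdm6b-cKO, against WT values of 56.5 and 53.9 kb. Pax5, which also sets B cell identity, had no overlap, with 89.7 and 84.4 kb in Kdm6b-cKO, against WT values of 65.9 and 60.5 kb. Of neuronal channels and receptors, 9 of 33 (27.3%) started in a domain, next to 3.94% of all coding genes. The domain of Cacna1h, a T-type calcium channel gene, had 119.5 and 122.5 kb in Kdm6b-cKO, against WT values of 91.7 and 62.8 kb, while that of Grin1, an NMDA receptor subunit gene, had 23.0 and 21.6 kb in Kdm6b-cKO, against WT values of 22.0 and 20.8 kb.

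Signalling genes had 19 of 47 starts (40.4%) in domains, next to 3.94% of all coding genes. Wnt3a, a canonical Wnt ligand, had 61.8 and 58.2 kb in Kdm6b-cKO, against WT values of 58.4 and 56.7 kb. The pair Fgf3 and Fgf4 had 81.1 and 78.7 kb in Kdm6b-cKO, against WT values of 65.5 and 42.5 kb. Bmp4, a ligand made by the dermal papilla, had 47.2 and 45.4 kb in Kdm6b-cKO, against WT values of 48.6 and 44.97 kb, and Bmp7 had 25.9 and 25.7 kb in Kdm6b-cKO, against WT values of 17.9 and 13.8 kb. The genotypes overlapped at Wnt3a and Bmp4 and did not at Fgf3, Fgf4 and Bmp7.

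Of the lineages of the dermis, 8 of 24 dermal papilla genes (33.3%) and 4 of 20 adipocyte genes started in a domain, next to 3.94% of all coding genes. The ratios of the 8 papilla genes ran from 0.990 at Bmp4 to 2.21 at Rspo1, a Wnt agonist gene. Sox2, a papilla factor of guard hairs, had 41.0 and 41.4 kb in Kdm6b-cKO, against WT values of 41.3 and 38.7 kb, and Foxd1 had 43.8 and 42.8 kb in Kdm6b-cKO, against WT values of 40.9 and 38.3 kb. Eya2, a transcriptional coactivator gene, had 28.3 and 27.5 kb in Kdm6b-cKO, against WT values of 21.2 and 13.1 kb. The genotypes overlapped at Sox2 and did not at Foxd1 and Eya2. Rspo1 had 14.9 and 22.5 kb in Kdm6b-cKO, against WT values of 11.1 and 5.84 kb, without overlap. Alpl, the gene of the alkaline phosphatase that marks the papilla, had 21.1 and 14.4 kb in Kdm6b-cKO, against WT values of 18.4 and 6.96 kb, with overlap, and Notum, a Wnt antagonist gene, had a ratio of 1.46. Prdm16, a regulator of brown fat, had 39.9 and 35.0 kb in Kdm6b-cKO, against WT values of 22.7 and 21.1 kb. Lep, the gene of the hormone leptin, had 21.2 and 20.8 kb in Kdm6b-cKO, against WT values of 15.9 and 8.57 kb. The genotypes did not overlap at Prdm16 and Lep. Ebf2 and Ebf3, factors of early adipocytes and stroma, had ratios of 1.02 and 1.04. No expression was measured in these files, so nothing is known here of the activity of these genes.

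Genes of other cell types also started in domains, next to 3.94% of all coding genes. They were 4 of 20 keratinocyte and epithelial genes, 3 of 11 melanocyte and neural crest genes (27.3%), 2 of 12 immune genes (16.7%), 1 of 12 endothelial genes (8.33%) and 1 of 10 skeletal muscle genes. Krt1, a keratin of the upper epidermis, had 42.9 and 42.5 kb in Kdm6b-cKO, against WT values of 28.4 and 27.04 kb. Pax7, a factor of muscle stem cells, had 90.2 and 86.0 kb in Kdm6b-cKO, against WT values of 61.1 and 58.1 kb. Cd3e, a T cell receptor subunit gene, had 21.03 and 18.8 kb in Kdm6b-cKO, against WT values of 11.4 and 8.42 kb, and Tfap2a, a neural crest and epidermal factor, had 23.3 and 24.8 kb in Kdm6b-cKO, against WT values of 25.5 and 24.7 kb. The genotypes overlapped at Tfap2a and did not at Krt1, Pax7 and Cd3e. The start of Krt1 itself was covered in both Kdm6b-cKO libraries and neither WT library, and that of Cd3e in all but WT replicate 9. None of the 18 core fibroblast genes and none of the 16 housekeeping genes had a peak of any library at its start, next to 82.0% of all autosomal coding genes without one, so these counts are a weak check of the labelled cell type. Of 12 genes of PRC2 and its demethylases, 10 had no peak at the start, Kdm6b among them, and 0 started in a domain, which is close to the shares over all coding genes.

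The domains were spread unevenly. Chromosome 11 had the most per length, 7.83 per 10 Mb (93 domains), and chromosome 3 the fewest, 1.47 per 10 Mb (23 domains). The median gap to the next domain was 364.3 kb, but 397 domains had another within 50 kb. One of the largest such groups had 7 domains around Irf8 and Foxf1, at chr8:120727857-121095665. Foxf1 is a mesenchymal forkhead factor and Irf8 a factor of myeloid cells.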

How the data were processed

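H3K27me3 ChIP-seq of cultured dermal fibroblasts was processed by the authors with MACS2 2.2.7.1 after Bowtie2 2.3.5.1 alignment to mm10, and with deepTools 3.5.1, SAMtools 1.9 and bcl2fastq, per the submitters' processing notes. The study's methods describe subsampling to an equal number of reads and broad peaks at q 0.01. The authors deposited, for each library on its own, peak positions with a −log10 q, a −log10 p, a fold ratio over local background and a display score for the whole peak. Any spike-in is not given in the sources used here, and unequal efficiency of precipitation between libraries can change peak lengths.

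Samples were grouped by title. Peaks were merged, and covered length, gaps, GC, CpG and repeats were computed with Python 3.11.15, numpy 2.4.6, pandas 2.3.3 and scipy 1.17.1 on GRCm38.p6 with GENCODE M21 starts of coding genes. The merging and selection were tested on simulated data, where 600 of 600 planted regions were recovered. Figures used matplotlib 3.10.9. No test was run, because the covered lengths chose the members. The members and gene lists were chosen with earlier results of these data known. Domains were named as the 12 largest cores, the 5 with most coding starts, the 5 largest cores without one, the 4 highest and 4 lowest ratios and those next to each limit, and the genes of each list with the largest cores. Rspo1, Alpl, Notum, the microRNAs, the Hoxa9 to Hoxa13, Irf8, Igf2 and Dio3 domains and the Hox genes outside domains were chosen after their values were seen. Sequences came from RefSeq tables. The X and Y chromosomes and the input were not used here.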

Additional observations from a re-analysis of the deposited data

How the results depend on the processing

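Every alternative kept the ratio of Kdm6b-cKO to WT covered length above 1, between 1.15 and 1.32, and it was 1.18 to 1.30 when each library was left out in turn. Regions longer in both WT libraries and doubled regions were left out in these settings too. These ratios are thus a description, and a value above 1 is no separate support. The other summaries moved, and the cause was not tested. The share of the added Kdm6b-cKO length inside the WT span was 27.9% with peaks of −log10 q of at least 4, 64.5% with an equal number of peaks, 56.9% with equal covered length (58.8% in the same domains), 73.8% and 60.2% with a minimum of 30 and 10 kb, 72.0% with gaps of up to 1 kb bridged, and 60.7% to 68.8% when each library was left out in turn. The number of domains was 692 at the stricter −log10 q, 750 with equal covered length, 968 with an equal number of peaks and 1137 with gaps bridged. It was 473 and 2765 with a minimum of 30 and 10 kb, and 728 to 896 when each library was left out. The share of domains with a developmental transcription factor was 19.5% at the stricter −log10 q, 17.2% with equal covered length, 22.2% and 6.22% with a minimum of 30 and 10 kb, and 12.6% to 17.7% when each library was left out. Median CpG per kb was 15.5 at the stricter −log10 q, 15.3 with equal covered length, 13.1 with a minimum of 10 kb, 13.7 with gaps bridged, and 14.2 to 14.9 when each library was left out. The median ratios by class under equal covered length or without a library were added after the data were seen.

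No paired analysis was possible because the replicate numbers, 3 and 4 for Kdm6b-cKO and 7 and 9 for WT, are not shared between the groups. Peak lists without read counts and 2 libraries a group limit the precision, and covered length cannot tell a change in the mark from a difference in enrichment between libraries.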

Other observations

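Some domains lay over imprinted genes or over non-coding RNA genes. The domain of Igf2, an imprinted growth factor gene, had 21.8 and 18.9 kb in Kdm6b-cKO, against WT values of 13.1 and 12.6 kb. That of Dio3, an imprinted gene for a thyroid hormone deiodinase, had 33.3 and 34.1 kb in Kdm6b-cKO, against WT values of 29.6 and 26.2 kb. The genotypes did not overlap at either gene. Of annotated autosomal rRNA genes, 55 of 321 (17.1%) started in a domain, 51 of them in the 5S array of chromosome 8, beside 3.44% of lincRNA starts and 4.57% of antisense RNA starts. The domain of Mir96, Mir183 and Mir182, microRNAs of sensory hair cells and photoreceptors, had 22.2 and 20.4 kb in Kdm6b-cKO, against WT values of 19.6 and 20.1 kb. In it, Mir96 and Mir183 were covered in 4 libraries and Mir182 in 1.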
